A study of Mus musculus with 60 samples.

Results

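The 9 genes described here encode proteins of heme biosynthesis. They are the enzymes Alas2, Alad, Uros, Urod, Cpox, Ppox and Fech and the mitochondrial membrane proteins Slc25a38 and Tmem14c, and they were found by symbol and Ensembl identifier as 9 of the 49315 genes in the deposited count tables. Whole blood of 60 male CD2F1 mice, purchased at 5 to 6 weeks of age, was profiled by RNA sequencing in 10 groups of 6. The mice received vehicle (methylcellulose and polyvinylpyrrolidone in water) or BIO 300, an oral dispersion of synthetic genistein, at 50 mg/kg (BIO300-Low), 100 mg/kg (BIO300-Med) or 200 mg/kg (BIO300-High). Doses were given every morning and evening for 6 days. Blood of each of these 4 treatments was taken 24 h (Day 0) or 48 h (Day 1) after the last dose, from separate mice. The remaining groups, Vehicle TBI and BIO300-High TBI, were exposed on Day 0 to 9.2 Gy of total-body irradiation (TBI) from cobalt-60. Their blood was drawn on Day 1, a day after exposure. Vehicle or drug was given by gavage to every mouse, and a single hybrid strain, sex and age was studied.

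Heme is assembled from glycine and succinyl-CoA in a chain of steps that starts in the mitochondrion, passes through the cytosol and ends in the mitochondrion, where iron is inserted into protoporphyrin. In developing red cells the chain serves hemoglobin, and its first step is carried by Alas2, an erythroid enzyme distinct from the Alas1 of other tissues. Young circulating red cells, the reticulocytes, still hold transcripts of this program after the nucleus is lost, so whole blood is rich in them.

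The libraries held between 15099415 and 45589415 gene counts per mouse, with a median of 24877994. Levels are given as CPM (counts relative to library size) after TMM scaling, which sets library sizes so that the bulk of genes is balanced between mice. The TMM factors were far from 1 and moved with the groups, with medians of 1.13 in Vehicle Day 0, 1.45 in Vehicle Day 1 and 1.90 in BIO300-Low Day 0 against 0.557 in BIO300-Med Day 1 and 0.538 in BIO300-High Day 1, so values scaled to total counts alone stand beside the main ones. Liver transcripts were present in 10 libraries, in which Alb, the gene of serum albumin, lay between 310.6 and 21977 CPM of total counts against at most 58.7 CPM in the other 50. They were 2 of the Vehicle TBI mice and 1 mouse of every other group except BIO300-Low Day 1, and member calls that changed without them are given beside the result. In bulk blood fewer cells of a type and less RNA per cell cannot be told apart.

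Among the members, Alas2 and Urod had levels with similar patterns. Cpox was higher after TBI in vehicle mice, and also after both higher doses of BIO 300 on Day 1. Tmem14c moved least after BIO 300 on Day 1 under TMM scaling. For these 4 members, which differed in their responses, sequences upstream of the start sites are shown. They are RefSeq sequences of GRCm38.p6, written 5′ to 3′ on the strand of the gene, and capitals mark matches to 2 motifs of erythroid promoters, the GATA words (AGATAA with its variant AGATAG, and TGATAA with its variant TGATAG) and the CACCC-type word CCNCNCCC, on either strand. The Alas2 stretch is chrX:150547167-150547374 on the plus strand, within an intron of the opposite-strand gene Apex2. The Urod stretch is chr4:116994414-116994663 on the minus strand, the Cpox stretch is chr16:58669958-58670207 on the plus strand and the Tmem14c stretch is chr13:41016000-41016249 on the plus strand, and none of the 4 overlaps an annotated exon.
Alas2: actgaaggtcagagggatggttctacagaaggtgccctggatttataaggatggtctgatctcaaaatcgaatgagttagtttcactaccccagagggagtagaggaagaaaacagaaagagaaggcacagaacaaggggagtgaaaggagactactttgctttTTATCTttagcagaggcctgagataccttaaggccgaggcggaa
Urod: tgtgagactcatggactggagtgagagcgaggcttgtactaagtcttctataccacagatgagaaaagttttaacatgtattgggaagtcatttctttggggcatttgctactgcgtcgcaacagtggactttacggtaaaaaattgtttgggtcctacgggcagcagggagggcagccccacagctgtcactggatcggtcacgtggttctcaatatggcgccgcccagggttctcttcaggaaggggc
Cpox: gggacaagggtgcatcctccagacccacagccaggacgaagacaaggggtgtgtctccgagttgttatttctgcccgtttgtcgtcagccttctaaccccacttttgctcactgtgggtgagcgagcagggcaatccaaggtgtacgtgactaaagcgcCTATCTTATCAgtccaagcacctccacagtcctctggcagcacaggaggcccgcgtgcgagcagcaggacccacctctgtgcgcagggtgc
Tmem14c: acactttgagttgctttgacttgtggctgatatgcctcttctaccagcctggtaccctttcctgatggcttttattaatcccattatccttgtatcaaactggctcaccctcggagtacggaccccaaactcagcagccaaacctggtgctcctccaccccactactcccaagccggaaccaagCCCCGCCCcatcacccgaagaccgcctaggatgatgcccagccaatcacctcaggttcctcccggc

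The 250 bases upstream of 10 RefSeq starts were searched in 8 members, of which Alad and Uros have a pair of starts each. GATA words were found for 3 of the 8 members (Alas2, Cpox and 1 of the Uros starts), and the pair of Cpox matches shares a base. Such words occur in 26.5% of 32851 mouse promoter windows of this length. The word CCNCNCCC was found for 5 members (Alas2, Alad, Uros, Slc25a38 and Tmem14c) and occurs in 45.9% of windows, and its Alas2 matches lay next to the RefSeq start in bases that another annotation places in the first exon, which are not printed. The word TGANTCA, bound by factors of the AP-1 and NF-E2 type, was found for none of the 8 members and occurs in 6.75% of windows, while Urod and Ppox held no match to any of these words. These matches describe the sequence alone.

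In the GENCODE M21 annotation of GRCm38 the genes are spread over the genome. Alas2 (ENSMUSG00000025270) spans chrX:150547375-150570638, Uros (ENSMUSG00000030979) chr7:133686243-133710072, Cpox (ENSMUSG00000022742) chr16:58670292-58717636 and Ppox (ENSMUSG00000062729) chr1:171275990-171281186, and each of these overlaps a gene on the opposite strand (Apex2 and Mir3620, Bccip, Gpr15 and B4galt3). Whether strand was used in counting is not given in the sources used here, so reads of these partners cannot be told apart from theirs. Alad (ENSMUSG00000028393) spans chr4:62509169-62519918, Urod (ENSMUSG00000028684) chr4:116989965-116994413, Slc25a38 (ENSMUSG00000032519) chr9:120110374-120124504 and Tmem14c (ENSMUSG00000021361) chr13:41016292-41022586, with no overlapping gene. Fech is ENSMUSG00000024588.

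The members differed in level by orders of magnitude. Per kilobase of exon, Alas2 was the most abundant in Vehicle Day 0 blood at 16115 ± 3708 CPM per kb (SD, n = 6), followed by Fech, which inserts the iron, at 706 ± 182 CPM per kb and by Urod, which decarboxylates uroporphyrinogen in the cytosol, at 69.1 ± 15.9 CPM per kb. The other 6 lay close together. Tmem14c, needed to bring porphyrin precursors to the mitochondrial matrix, was at 13.9 ± 3.20 CPM per kb and Alad, which joins aminolevulinate molecules into a pyrrole, at 11.9 ± 5.94 CPM per kb. Slc25a38, the carrier that brings glycine into mitochondria, was at 5.20 ± 1.14 CPM per kb, Ppox at 3.76 ± 0.749, Cpox at 2.91 ± 1.23 and Uros at 2.21 ± 0.373 CPM per kb. Ranges over the mice overlapped between Tmem14c and Alad and between neighbors from Slc25a38 down to Uros, and not between other neighbors in this order. Alas2 alone made up between 0.872% and 7.76% of all gene counts of a mouse, with a median of 4.39%. The rarest member, Uros, still had at least 107 counts in every mouse. The spread between mice averaged 41.5% of the mean within groups for Alas2 and Fech, 20.8% for Uros and 13.0% for Tmem14c. Counting error was not separated from this spread.

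Across the 10 groups, Alas2, Fech and Urod had their lowest and highest medians in the same groups. Group medians of Alas2 ran from 11164 CPM in BIO300-Low Day 0 to 132501 CPM in BIO300-High Day 1, those of Fech from 2477 to 21258 CPM and those of Urod from 55.6 to 489.8 CPM in the same groups. Cpox had its lowest median, 13.0 CPM, in BIO300-Low Day 0 and its highest, 55.2 CPM, in BIO300-Med Day 1. Tmem14c was ordered in another way, with its highest medians of 23.7 CPM in Vehicle TBI and 23.6 CPM in BIO300-High TBI. When the groups were ordered by mean level, neighbors overlapped at all 9 steps for 7 members and at 8 of 9 steps for Slc25a38 and Tmem14c.

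**Figure D1:**
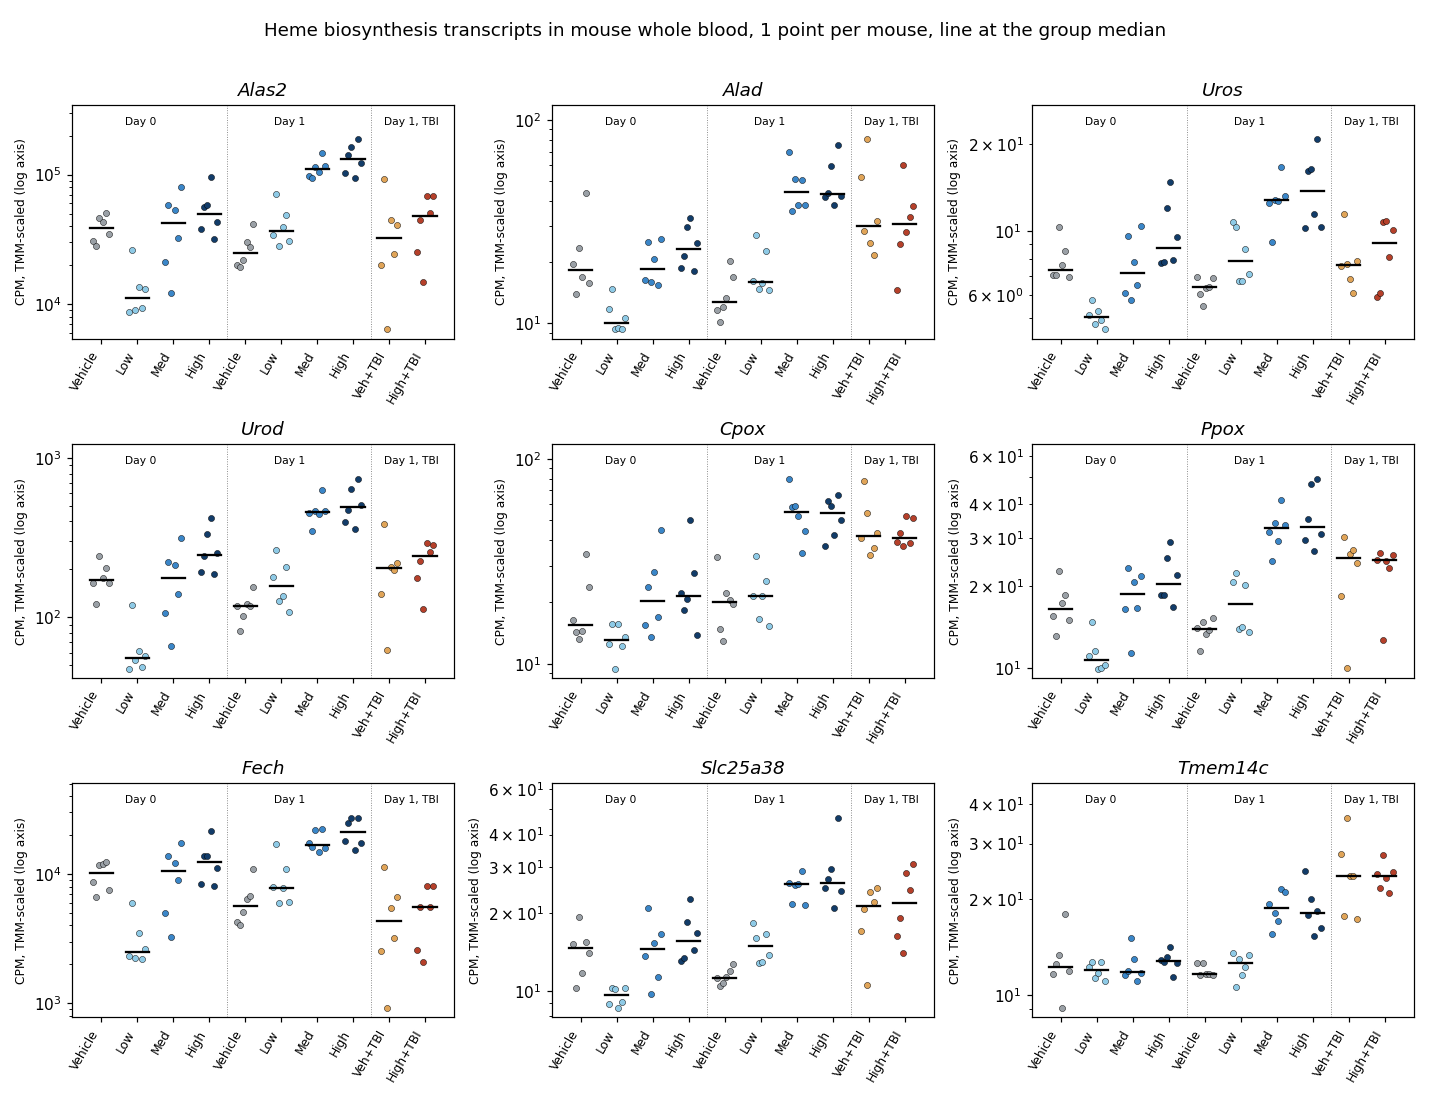
TMM-scaled level in CPM (vertical log axis) of each of the 9 genes, 1 panel per gene, in the 10 groups of 6 mice (horizontal axis). Each point is a mouse and each line a group median. BIO300-Med Day 1 and BIO300-High Day 1 stand highest for Alas2, where their mice run from 93942 to 186987 CPM, while Tmem14c is highest in the irradiated groups.

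The comparison of BIO300-High with vehicle on Day 1 addressed what the highest dose left in the blood transcriptome 48 h after dosing. All 9 members were at higher TMM-scaled levels in BIO300-High mice, with no overlap between the groups, as were 16.5% of all genes tested, and 8 of the 9 rose as differentially expressed genes (DEGs, adjusted p under 0.05 and absolute log2 fold change over 1). Of all genes tested 47.8% were DEGs and 17.3% were DEGs with higher levels. Alas2 ranged from 19332 to 41431 CPM (median 24865) in Vehicle Day 1 and from 94124 to 186987 CPM (median 132501) in BIO300-High Day 1, a 5.3-fold rise (log2 fold change 2.41 ± 0.46 SE, adjusted p = 0.000442, edgeR). Every treated mouse lay above every control.

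The enzymes that follow Alas2 rose by smaller amounts. Alad went from between 10.1 and 20.2 CPM (median 12.7) to between 38.0 and 75.1 CPM (median 43.2), a log2 fold change of 1.90 ± 0.20 (adjusted p = 1.46e-06, edgeR). Uros, which closes the tetrapyrrole ring, went from between 5.48 and 6.94 CPM (median 6.38) to between 10.2 and 20.8 CPM (median 13.8), a log2 fold change of 1.23 ± 0.18 (adjusted p = 3.14e-05, edgeR). Among the cytosolic steps Urod moved most. It lay between 81.6 and 154.1 CPM (median 117.9) in controls and between 359.1 and 743.5 CPM (median 489.8) in treated mice, a 4.71-fold rise (log2 fold change 2.24 ± 0.19, adjusted p = 1.94e-07, edgeR).

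The late enzymes act in or at the mitochondrion. Cpox, which makes protoporphyrinogen, went from between 12.9 and 33.2 CPM (median 20.0) to between 37.5 and 66.7 CPM (median 54.4), with a log2 fold change of 1.44 ± 0.21 (adjusted p = 3.71e-05, edgeR). Ppox, which oxidizes it to protoporphyrin, went from between 11.5 and 15.2 CPM (median 13.9) to between 26.9 and 49.4 CPM (median 33.0), with a log2 fold change of 1.47 ± 0.15 (adjusted p = 9.1e-07, edgeR). Fech stood between 4008 and 10874 CPM (median 5704) in controls and between 15452 and 27196 CPM (median 21258) in treated mice, a 3.65-fold rise (log2 fold change 1.87 ± 0.32, adjusted p = 0.000181, edgeR). Fech, like Alas2, did not overlap between the groups.

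The membrane proteins differed from each other. Slc25a38 went from between 10.5 and 12.7 CPM (median 11.3) to between 20.8 and 46.4 CPM (median 25.9), a log2 fold change of 1.40 ± 0.16 (adjusted p = 3.47e-06, edgeR). Tmem14c went from between 11.5 and 12.6 CPM (median 11.6) to between 15.3 and 24.6 CPM (median 18.1) and was the member not called, at a log2 fold change of 0.72 ± 0.11 (adjusted p = 6.09e-05, edgeR).

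These directions depended on the scaling for part of the members. Scaled to total counts, none of the 9 was a DEG, beside 68.6% of all genes, and the log2 fold changes ran from −0.79 for Tmem14c to 0.88 for Alas2 (adjusted p = 0.00108 and 0.000237, edgeR), with Urod at 0.69, Alad and Fech both at 0.36, Cpox at −0.12, Ppox at −0.084, Slc25a38 at −0.15 and Uros at −0.34. The whole distribution shifted with the scaling, the median of all genes being −0.48 under TMM and −1.96 under total counts, and the DEGs changed from 4073 higher and 7168 lower to 712 higher and 15407 lower. Relative to the median gene, all 9 members were higher, by 1.21 to 2.89 log2 units with TMM and by 1.17 to 2.83 with total counts. Subtracting the median removes most of the scaling, so the near match of these values follows from the method. The share of all genes this far above the median was not computed. Alas2 made up a median of 6.96% of counts in BIO300-High Day 1 and 3.59% in Vehicle Day 1. Globin transcripts took a mean of 16.1% of counts against 10.0%, platelet markers 1.01% against 0.362%, B cell markers 0.0105% against 0.0885% and monocyte markers 0.00703% against 0.0384%; their part in the result was not tested.

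At 100 mg/kg on Day 1 the pattern was the same in outline, against the same vehicle mice. Again 8 members were DEGs with higher levels, beside 18.2% of all genes called higher and 48.8% called in either direction, and all 9 lay above controls without overlap under TMM, as did 17.2% of all genes. Alas2 lay between 93942 and 146421 CPM (median 109567), a log2 fold change of 2.12 ± 0.60 (adjusted p = 0.00691, edgeR). Urod lay between 348.5 and 629.7 CPM (median 457.7), a log2 fold change of 2.07 ± 0.16 (adjusted p = 1.1e-07, edgeR). The other called members had log2 fold changes of 1.80 for Alad, 1.59 for Fech, 1.48 for Cpox, 1.29 for Ppox, 1.19 for Slc25a38 and 1.07 for Uros, and Tmem14c was at 0.71. The call of Uros ended without BIO300-Med Day 1 mouse 41 (log2 fold change 0.99). With total counts none was a DEG, beside 66.3% of all genes, with Alas2 at 0.74, Urod at 0.68, Alad at 0.44, Fech at 0.24, Cpox at 0.11, Ppox at −0.12, Slc25a38 at −0.21, Uros at −0.34 and Tmem14c at −0.70. All genes then shifted to a median of −1.76 from −0.38, with 980 higher and 14735 lower DEGs in place of 4314 and 7249. By the same subtraction, all 9 members lay above the median gene, by 1.09 to 2.5 log2 units with TMM and by 1.06 to 2.5 with total counts.

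**Figure D2:**
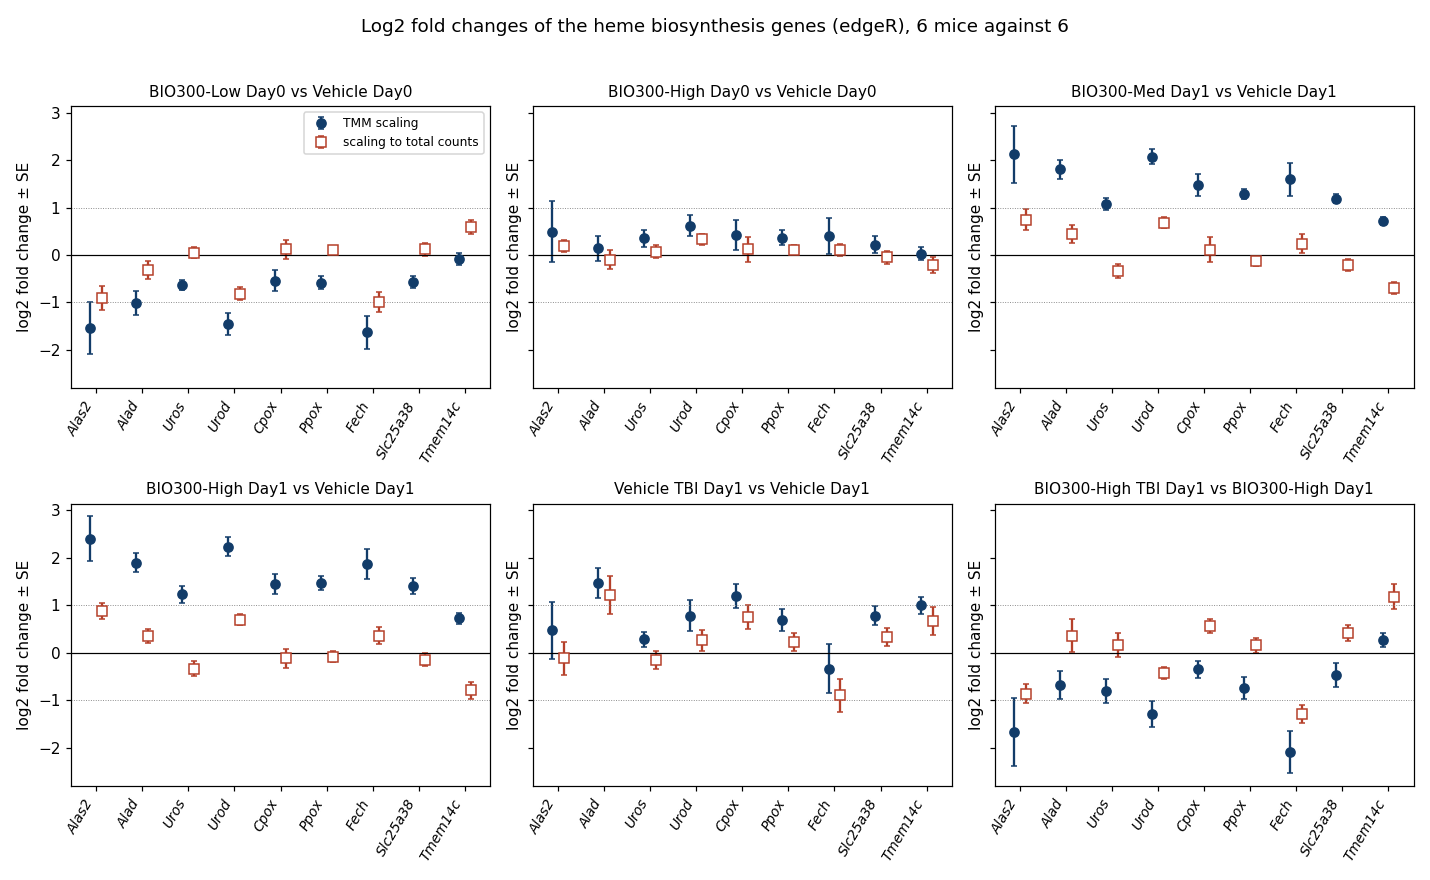
Log2 fold change ± SE (vertical axis, edgeR) of the 9 genes (horizontal axis) in selected comparisons of 6 mice against 6, each under TMM scaling and under scaling to total counts. In BIO300-High against vehicle on Day 1 the TMM values lie between 0.72 and 2.41 and the total-count values between −0.79 and 0.88.

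The lowest dose on Day 1 and both higher doses on Day 0 gave no called member. BIO300-Low against vehicle on Day 1 had log2 fold changes from 0.06 to 0.66, with a smallest adjusted p of 0.0887 (edgeR) and 4 members at an unadjusted p under 0.05. BIO300-Med against vehicle on Day 0 had values from −0.16 to 0.30 with 0 members at an unadjusted p under 0.05, and BIO300-High against vehicle on Day 0 had values from 0.03 to 0.62 with 2 such members. DESeq2 called 0 members in each of the 3 comparisons, and edgeR called 0.0% of all genes. The standard errors of Alas2, 0.43 to 0.86, were the largest among the members in these comparisons. In BIO300-Med Day 0 it ranged from 12181 to 79840 CPM (median 42546), around the 28059 to 50105 CPM (median 38898) of the controls.

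On Day 0 the 50 mg/kg group differed from vehicle in the opposite direction. BIO300-Low Day 0 had 3 members that fell as DEGs, Fech, Urod and Alad, beside 4.38% of all genes called lower and 4.5% called in either direction. Fech lay between 6617 and 12383 CPM (median 10126) in Vehicle Day 0 and between 2188 and 6003 CPM (median 2477) in BIO300-Low Day 0, without overlap, a log2 fold change of −1.63 ± 0.35 (adjusted p = 0.00824, edgeR). Urod lay between 121.7 and 243.1 CPM (median 171.0) and between 47.7 and 119.2 CPM (median 55.6), also without overlap, a log2 fold change of −1.46 ± 0.23 (adjusted p = 0.00256, edgeR). Alas2 lay between 8632 and 26211 CPM (median 11164) against the same controls, likewise without overlap, but its log2 fold change of −1.54 ± 0.55 was not called (adjusted p = 0.0787, edgeR).

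Single libraries bore on these calls. BIO300-Low mouse 2 was the highest of its group for Alas2, Urod and Fech, and without it Alas2 was called at −1.85 (adjusted p = 0.015, edgeR). The call was also made without Vehicle Day 0 mouse 17, at −1.46 (adjusted p = 0.0164, edgeR), and without both libraries with liver transcripts in this comparison, at −1.36 (adjusted p = 0.0199, edgeR). Alad overlapped between the groups, at 13.9 to 43.9 CPM (median 18.3) in controls and 9.34 to 14.8 CPM (median 10.1) in treated mice. Its log2 fold change of −1.02 ± 0.25 (adjusted p = 0.0174, edgeR) became −0.72 without the liver-transcript library of Vehicle Day 0 mouse 17 and −0.74 without both such libraries, no longer called, and the call also ended, at −0.98 to −0.99, without Vehicle Day 0 mouse 15 or BIO300-Low Day 0 mouse 3, 4 or 5. Urod and Fech were called in all 12 fits that left out a mouse.

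The remaining members of that comparison changed less. Uros had a log2 fold change of −0.63 ± 0.11 (adjusted p = 0.00327), Ppox of −0.59 (adjusted p = 0.0135) and Slc25a38 of −0.57 (adjusted p = 0.0134, edgeR), and none reached the fold limit. Cpox at −0.54 (adjusted p = 0.117) and Tmem14c at −0.08 (adjusted p = 0.706, edgeR) did not pass. With total counts no member was called, beside 11.7% of all genes, and Fech stood at −0.99, Alas2 at −0.90 and Urod at −0.82, while Tmem14c stood at 0.60 (adjusted p = 0.00401, edgeR). All genes shifted to a median of 0.69 from 0.03, and their DEGs from 31 higher and 1072 lower to 2563 higher and 307 lower. All 9 members lay below the median gene, at −1.66 to −0.11 log2 units from it with TMM and at −1.67 to −0.09 with total counts. Scaling largely cancels in this difference. Red cell membrane transcripts took a mean of 0.415% of counts against 0.937% in controls, globin transcripts 6.38% against 9.42% and structural noncoding RNA 14.3% against 10.0%; their part in the result was not tested.

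The change of the BIO 300 effect between the days was tested directly, each effect being measured against the vehicle mice of its own day. For BIO300-High the effect on Day 1 exceeded that on Day 0 in 7 called members, beside 13.1% of all genes called higher and 36.7% called in all. Alas2 differed by 1.94 ± 0.72 (adjusted p = 0.0287) and Alad by 1.78 ± 0.35 (adjusted p = 0.000215), with Urod at 1.65, Fech at 1.49, Slc25a38 at 1.21, Ppox at 1.14 and Cpox at 1.05 (edgeR). Without the libraries with liver transcripts Cpox was not called, at 0.86 (adjusted p = 0.0654), and Uros was, at 1.03 (adjusted p = 0.00271, edgeR). For BIO300-Med 7 members were called, beside 15.7% of all genes called higher and 42.0% in all. They were Urod at 2.08, Alad at 1.96, Fech at 1.54, Ppox and Cpox both at 1.17, Slc25a38 at 1.15 and Uros at 1.11, and Alas2 at 1.97 ± 1.07 did not pass (adjusted p = 0.123, edgeR). Without the libraries with liver transcripts Cpox was not called, at 0.69 (adjusted p = 0.12), and Alas2 was, at 1.74 (adjusted p = 0.0228, edgeR). For BIO300-Low, 5 were called beside 6.73% of all genes called higher and 7.69% in all.

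Those 5 were Fech at 2.23 ± 0.51 (adjusted p = 0.00318), Alas2 at 2.21 ± 0.75 (adjusted p = 0.0438), Urod at 2.04 ± 0.33 (adjusted p = 0.000298), Alad at 1.43 and Uros at 1.04 (edgeR). With total counts 0 members were called for BIO300-High and BIO300-Med, beside 54.9% and 59.9% of all genes, where the members ran from −0.58 to 0.69 and from −0.81 to 0.76, and the 3 members Alas2 at 1.20, Fech at 1.21 and Urod at 1.00 were called for BIO300-Low, beside 40.2% of all genes. The median of all genes was −0.35, −0.37 and −0.08 for the high, middle and low doses under TMM and −1.58, −1.83 and −1.05 with total counts. All 9 members lay above the median gene for every dose, a difference in which the scaling largely cancels. DEGs of all genes split into 3372 higher and 6065 lower, 4073 and 6817, and 1772 and 253 under TMM, and into 616 and 13491, 911 and 14606, and 395 and 10182 with total counts.

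Without treatment or irradiation the day itself gave no called member. Vehicle Day 1 against Vehicle Day 0 had log2 fold changes from −0.67 for Alad to 0.07 for Cpox, with a smallest adjusted p of 0.208 (edgeR), 5 members at an unadjusted p under 0.05 and 0 called by DESeq2. Of all genes edgeR called 0.0%.

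Irradiation was compared in vehicle-treated mice, 24 h after TBI against Vehicle Day 1. Of the 9 members Alad and Cpox rose as DEGs, beside 19.6% of all genes called higher and 36.0% called in either direction, while Alas2, Uros, Urod and Fech did not pass the p limit. The count of called members is near the share called higher and not a result about the members. Alad lay between 21.8 and 80.3 CPM (median 30.1) after TBI against 10.1 to 20.2 CPM (median 12.7), without overlap, a log2 fold change of 1.47 ± 0.31 (adjusted p = 0.00228, edgeR). Cpox lay between 34.1 and 77.6 CPM (median 42.2) against 12.9 to 33.2 CPM (median 20.0), also without overlap, a log2 fold change of 1.19 ± 0.25 (adjusted p = 0.00199, edgeR). Both were called in all 12 fits that left out a mouse.

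Tmem14c separated as well, at 17.3 to 36.2 CPM (median 23.7) against 11.5 to 12.6 CPM (median 11.6). Its log2 fold change of 1.00 ± 0.17 (adjusted p = 0.000546, edgeR) lay just under the limit and was called in 6 of the 12 fits without 1 mouse (without Vehicle Day 1 mouse 25 or 27 or Vehicle TBI mouse 50, 52, 53 or 54), at 1.00 to 1.08. Slc25a38 at 0.78 (adjusted p = 0.00665) and Ppox at 0.69 (adjusted p = 0.0263, edgeR) passed the p limit alone. Alas2 spread widely among irradiated mice, from 6373 to 91997 CPM (median 32379), which covered the whole range of its controls. Fech ran from 925 to 11235 CPM (median 4316) and was the only member with a negative value, −0.34 ± 0.51 (adjusted p = 0.598, edgeR).

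Libraries with liver transcripts were 2 of the 6 Vehicle TBI mice and 1 of the controls. Hepatocyte markers took between 0.000215% and 3.31% of counts over the irradiated mice, against at most 0.214% in Vehicle Day 1. Without these 3 libraries 4 members were called, Cpox at 1.25 (adjusted p = 0.00144), Urod at 1.16 (adjusted p = 0.000636), Alad at 1.09 (adjusted p = 5.67e-05) and Slc25a38 at 1.05 (adjusted p = 5.14e-06, edgeR), beside 20.7% of all genes called higher and 44.2% in all. Urod was also called without Vehicle TBI mouse 51 alone, at 1.01. With total counts Alad was the 1 called member at 1.21, beside 34.9% of all genes, Cpox was at 0.75 and Fech at −0.90 (adjusted p = 0.0527, edgeR), and the median of all genes moved from 0.09 to −0.28, with 3115 higher and 5666 lower DEGs in place of 4920 and 4122. Neutrophil markers took a mean of 0.424% of counts after TBI against 0.0784%, platelet markers 1.37% against 0.362% and red cell membrane transcripts 0.253% against 0.567%; their part in the result was not tested.

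Against Vehicle Day 0 the irradiated vehicle mice gave 1 called member, beside 15.1% of all genes called higher and 26.9% in all. This count, too, is near the share called higher and not a result about the members. Cpox rose by a log2 fold change of 1.38 ± 0.28 (adjusted p = 0.00198, edgeR). Without single mice other members joined it: Alad at 1.14 without Vehicle Day 0 mouse 17, Fech as lower at −1.39 without Vehicle TBI mouse 50, and Tmem14c at 1.00 to 1.07 without Vehicle Day 0 mouse 14, 15 or 17 or Vehicle TBI mouse 50 or 54. With total counts Cpox at 1.17 and Fech at −1.24 (adjusted p = 0.014, edgeR) were called, beside 23.2% of all genes. The irradiated mice are shared between this comparison and the one above.

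BIO300-High before TBI did not separate the members from vehicle before TBI. Log2 fold changes ran from −0.33 for Alad to 0.18 for Alas2, with a smallest adjusted p of 1.00 (edgeR), 0 members at an unadjusted p under 0.05 and 0 called by DESeq2, and edgeR called 0.0% of all genes. The fit of all 10 groups together called 190 genes, 179 higher and 11 lower, and 0 of the members. Alas2 lay between 14836 and 68244 CPM (median 47675) in BIO300-High TBI, within the range of Vehicle TBI. The standard errors ran from 0.20 for Tmem14c to 0.62 for Alas2.

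Irradiated and unirradiated mice at 200 mg/kg were compared on Day 1. Fech and Urod fell as DEGs after TBI, beside 5.73% of all genes called lower and 20.6% in either direction. Fech lay between 2087 and 8103 CPM (median 5590) after TBI against 15452 to 27196 CPM (median 21258), without overlap, a 4.28-fold drop (log2 fold change −2.10 ± 0.45, adjusted p = 0.00374, edgeR). Urod lay between 112.1 and 292.8 CPM (median 242.2) against 359.1 to 743.5 CPM (median 489.8), without overlap, a log2 fold change of −1.29 ± 0.27 (adjusted p = 0.00312, edgeR). Fech kept its call with total counts, at −1.30, and in all 12 fits without 1 mouse.

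The call of Urod ended without BIO300-High TBI mouse 57, a liver-transcript library, at −0.996, and held without both such libraries of this comparison, at −1.23 (adjusted p = 0.000521, edgeR). Alas2 was called without that mouse alone, at −1.33 (adjusted p = 0.0149, edgeR), and without both, at −1.56 (adjusted p = 0.011, edgeR), whereas with all mice its log2 fold change of −1.67 ± 0.71 was not (adjusted p = 0.0968). Uros at −0.81 (adjusted p = 0.0297) and Ppox at −0.75 (adjusted p = 0.026, edgeR) passed the p limit alone, and Alad at −0.69, Slc25a38 at −0.47, Cpox at −0.35 and Tmem14c at 0.27 did not. With total counts Urod was at −0.42, Cpox at 0.56 and Tmem14c, then called, at 1.18 (adjusted p = 0.00323, edgeR), beside 39.5% of all genes called, while the median of all genes moved from 0.41 to 1.31 and the DEGs from 3521 higher and 1352 lower to 9100 and 223. All 9 members lay below the median gene, Fech most (−2.51 log2 units with TMM, −2.61 with total counts) and Tmem14c least (−0.14 and −0.13). Scaling largely cancels in this difference.

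The effect of BIO300-High with TBI was then set against its effect without TBI in a single contrast. It was smaller with TBI in 7 called members, beside 10.0% of all genes called lower and 29.6% in all. The differences were −2.02 ± 0.47 for Alad (adjusted p = 0.0023), −2.0 ± 0.70 for Alas2 (adjusted p = 0.0312) and −1.93 ± 0.41 for Urod (adjusted p = 0.00125, edgeR). Fech differed by −1.62, Cpox by −1.41, Ppox by −1.30 and Slc25a38 by −1.09. Uros at −0.94 (adjusted p = 0.019) and Tmem14c at −0.61 (adjusted p = 0.0485, edgeR) passed the p limit alone, and Uros was called without the libraries with liver transcripts, at −1.12 (adjusted p = 0.00523, edgeR). With total counts no member was called, beside 45.4% of all genes, and values ran from −0.86 to 0.51, while all genes shifted to a median of 1.68 from 0.60, with 11725 higher and 483 lower DEGs in place of 5248 and 2697. All 9 members were below the median gene, at −2.63 to −1.21 log2 units with TMM and −2.54 to −1.17 with total counts. Scaling largely cancels in this difference.

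To compare members without any scaling between libraries, each was expressed as its log2 ratio to 8 red cell membrane and skeleton genes (among them Slc4a1, Epb42, Ank1, Sptb, Rhag and Ermap) in the same library, and groups were compared with 2-sided exact permutation tests over the mice, adjusted over 99 tests. With 6 mice against 6 the smallest p is 0.00216. On Day 1, Alas2 was higher relative to these genes in BIO300-High than in vehicle mice, at 7.50 ± 0.12 against 6.91 ± 0.26 log2 units (SD, n = 6, exact permutation adjusted p = 0.0165), without overlap. It was also higher in BIO300-Med, by 0.59 (adjusted p = 0.0238, exact permutation test), as was Urod, by 0.51 (adjusted p = 0.0343, exact permutation test). Tmem14c was lower in BIO300-High, at a difference of −1.12 (adjusted p = 0.0321, exact permutation test). The other members did not pass in either comparison, with Fech differing by 0.09 in both. The 8 red cell genes did not keep together there. Relative to the other 7, Rhag moved by 1.01, Ermap by 0.80 and Epb42 by −0.83 in BIO300-Med. In BIO300-High they moved by 0.68, 0.56 and −0.65. The part of this drift in the Alas2, Urod and Tmem14c ratios was not tested. Relative to 4 globin genes instead, the Alas2 differences were −0.04 in BIO300-High and −0.11 in BIO300-Med (adjusted p = 0.97 and 0.84, exact permutation test), and the 4 members called in each, Uros, Ppox, Slc25a38 and Tmem14c, were lower. Globin genes took a mean of 16.1% and 16.9% of counts in BIO300-High and BIO300-Med Day 1 against 10.0% in Vehicle Day 1. The share of all genes lower relative to either reference was not computed, so the lower ratios are not a result about the members.

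In BIO300-Low Day 0, where all 8 red cell genes were themselves called lower, 6 members were higher relative to them. So were 70.8% of all genes tested, by the same exact permutation test at an unadjusted p of 0.013 or less, the largest p of a called ratio, and the count is not a result about the members. The differences of Alas2 (0.07), Urod (0.18) and Fech (0.00) did not pass. The 6 were Tmem14c by 1.63 and Ppox by 1.11, both without overlap (adjusted p = 0.0165, exact permutation test), Cpox by 1.21, Slc25a38 by 1.14, Uros by 1.07 and Alad by 0.76. Relative to 4 globin genes instead, none of the 6 passed, with differences of 0.54 to 1.41.

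After TBI Fech was the 1 member called at a lower ratio. Relative to the red cell genes it was lower in BIO300-High TBI than in BIO300-High Day 1, at 4.22 ± 0.10 against 4.85 ± 0.07 log2 units (SD, n = 6, exact permutation adjusted p = 0.0165), without overlap, and the difference was −0.63 with and without the libraries with liver transcripts. In Vehicle TBI it was lower than in Vehicle Day 1, at a difference of −0.44 (adjusted p = 0.0238, exact permutation test), at 4.32 ± 0.13 against 4.76 ± 0.20. In the same comparisons 6 and 3 other members were higher, among them Cpox by 1.26 and 1.40 and Alad by 0.83 and 1.56, beside 56.8% and 13.3% of all genes at that limit. As most genes were higher in BIO300-High TBI by this ratio, the count of 6 is not a result about the members. Urod was higher in Vehicle TBI than in Vehicle Day 1 by 0.82, without overlap (adjusted p = 0.0165, exact permutation test). Against Vehicle Day 0, 7 members were higher in Vehicle TBI, beside 25.8% of all genes, and Fech differed by −0.26 (adjusted p = 0.0969, exact permutation test).

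The red cell genes themselves did not keep together after TBI. In Vehicle TBI against Vehicle Day 1, Rhag and Ermap moved by 1.77 and 1.37 relative to the other 7 and Sptb and Slc4a1 by −1.17 and −1.01, and in BIO300-High TBI against BIO300-High Day 1 Rhag moved by 0.85 and Slc4a1 by −0.75. Relative to globin genes the Fech differences did not pass (adjusted p = 0.367 and 0.445, exact permutation test). The ratio of Fech to Alas2, which needs no such reference, differed by −0.75 and −0.43 in these comparisons, called in both (adjusted p = 0.00762, exact permutation test, a reference chosen after seeing the data). A lower ratio to Alas2 was not particular to TBI. Against vehicle on Day 1, 5 of 8 members in BIO300-Med and 7 of 8 in BIO300-High were called lower relative to Alas2. Relative to the red cell genes, Alas2 stood at 7.50 in BIO300-High and 6.91 in Vehicle Day 1, and Fech at 4.85 and 4.76. The share of all genes lower relative to Alas2 was not computed. Without the libraries with liver transcripts the Vehicle TBI differences shrank for Alad from 1.56 to 0.53 and for Cpox from 1.40 to 0.69, and no ratio passed in any comparison, the smallest adjusted p being 0.0561 (exact permutation test). With fewer mice the smallest possible p rose to 0.00794, so this lack of calls cannot decide whether these libraries mattered. Members with an unadjusted p under 0.05 stayed at 6 in BIO300-Low Day 0 and 8 in BIO300-High TBI against BIO300-High Day 1. They went from 6 to 2 and from 9 to 7 in Vehicle TBI against Vehicle Day 1 and Day 0, and from 4 to 3 and 5 to 4 in BIO300-Med and BIO300-High Day 1.

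**Figure D3:**
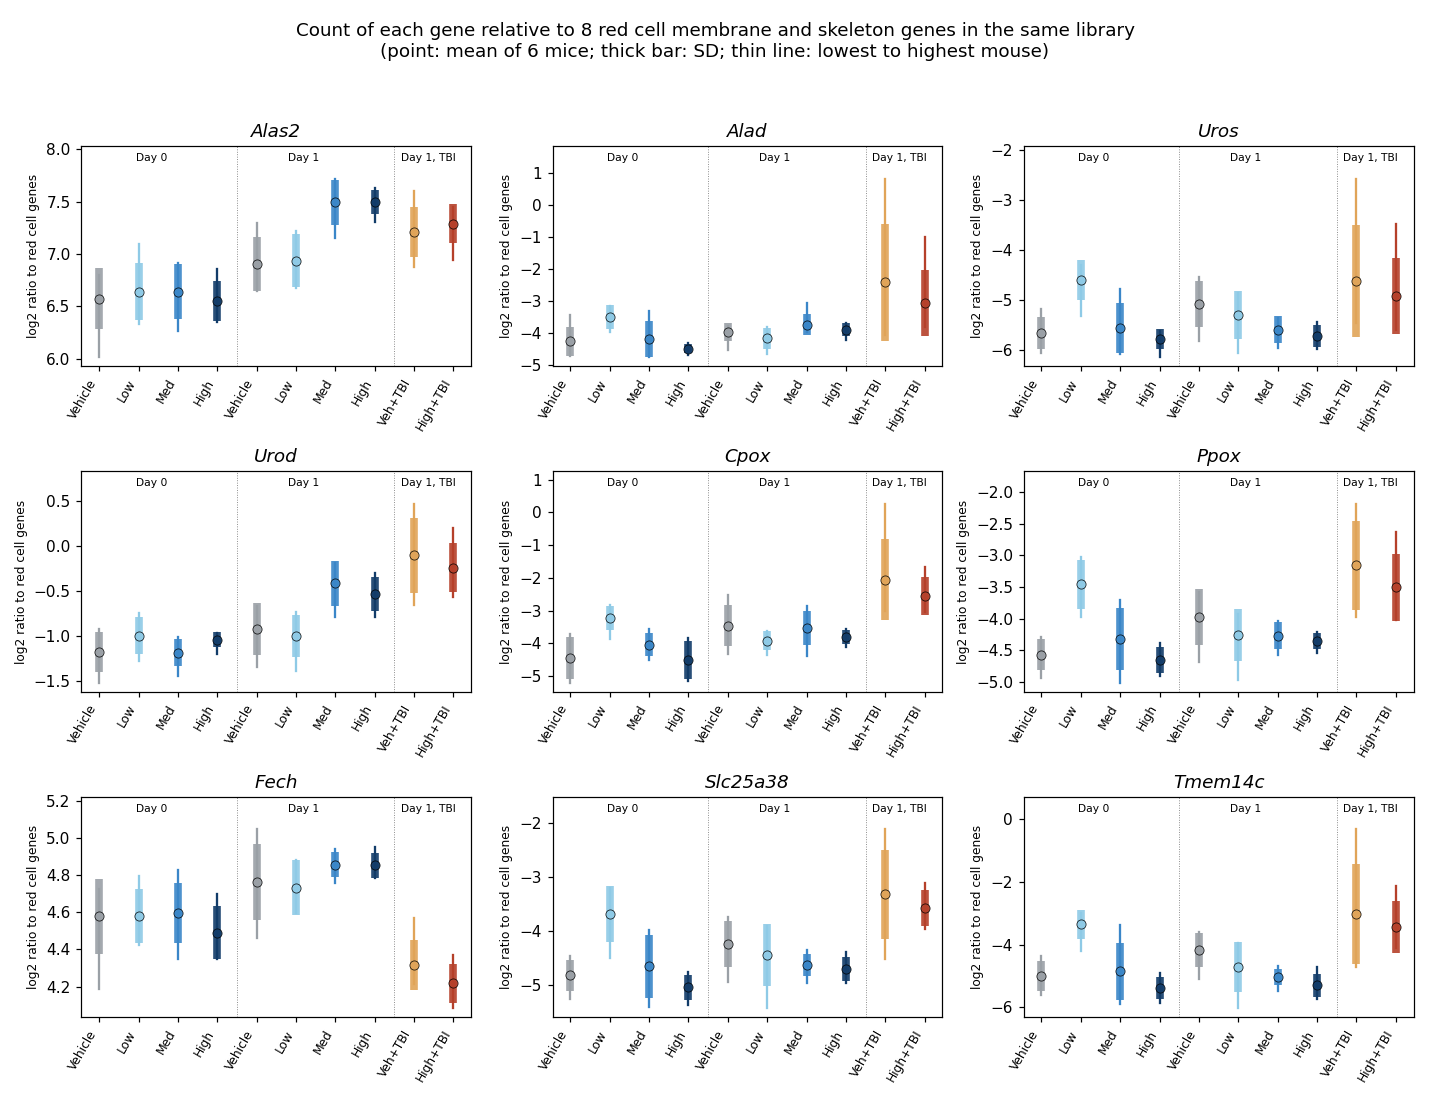
Log2 ratio of each of the 9 genes to the mean of 8 red cell membrane and skeleton genes in the same library (vertical axis, 1 panel per gene) in the 10 groups of 6 mice (horizontal axis). Points are group means, thick bars the SD and thin lines the lowest to highest mouse. The Fech ratios of the irradiated groups, at 4.08 to 4.57, lie below most others, while those of Alas2 are highest in BIO300-Med Day 1 and BIO300-High Day 1.

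Other genes of heme handling, a list of 24 that supply iron and iron-sulfur clusters, carry porphyrins or break heme down, moved partly with the members. In BIO300-High Day 1 12 of 24 were called higher and 2 lower, and in BIO300-Med Day 1 11 and 2, with list medians of 1.03 and 0.95 against −0.48 and −0.38 over all genes. Of all genes 17.3% and 18.2% were called higher, and 47.8% and 48.8% in either direction. Abcb6, a porphyrin transporter, was highest at 2.79 and 2.58 (adjusted p = 6.35e-08 and 9.64e-09, edgeR), and Abcb10, a mitochondrial transporter that supports early heme synthesis, was at 2.31 and 2.18. Flvcr2, a membrane transporter, was lower at −2.89 in BIO300-Med Day 1 (adjusted p = 0.00148, edgeR). Under total counts the list had 1 higher and 11 lower calls for BIO300-High and 1 and 8 for BIO300-Med, Abcb6 being the one higher at 1.22 and 1.18. That scaling called 68.6% and 66.3% of all genes. In BIO300-Low Day 0 9 of 24 were called lower and none higher, led by Glrx5, which serves iron-sulfur cluster assembly, at −1.69 (adjusted p = 0.00287) and Slc25a37, the erythroid mitochondrial iron importer, at −1.67 (adjusted p = 0.011, edgeR), with 1 higher and 2 lower under total counts. Shares of all genes were 4.38% called lower with TMM and 11.7% called in either direction under total counts. In the comparisons with no called member, 0 of the 24 were called, where edgeR called 0.0% of all genes.

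After TBI the same list was mixed. In Vehicle TBI against Vehicle Day 1 6 of 24 were called higher and none lower, led by Alas1, the first enzyme in tissues other than red cells, at 2.65 ± 0.82 (adjusted p = 0.0183) and Hmox1, the heme-degrading oxygenase, at 2.10 ± 0.32 (adjusted p = 0.000228, edgeR). As 19.6% of all genes were called higher and 36.0% in either direction, the count is near that share and not a result about the list. Bach1, a heme-sensing repressor, was higher at 1.21 (adjusted p = 4.88e-05, edgeR). Without the libraries with liver transcripts Alas1 stood at 0.44 ± 0.18 and was not called, Hmox1 stood at 1.80 and Bach1 at 1.41, both called, and the list had 6 higher and 2 lower calls. Of all genes 20.7% were then called higher and 44.2% in all. Against Vehicle Day 0 3 were higher and 2 lower, beside 15.1% of all genes called higher and 26.9% in all, with Hmox1 at 2.58 and Slc25a37 at −1.76. These counts are also near the shares of all genes. In BIO300-High TBI against BIO300-High Day 1 3 were higher and 8 lower, among them Glrx5 at −2.72 (adjusted p = 5.96e-05) and Slc25a37 at −2.45 (adjusted p = 0.00126, edgeR). Here 5.73% of all genes were called lower and 20.6% in all. The red cell membrane list itself had 8 of 8 called higher in BIO300-High Day 1 and 5 of 8 in BIO300-Med Day 1, 8 of 8 lower in BIO300-Low Day 0, 2 higher in Vehicle TBI against Vehicle Day 1 and 6 lower in BIO300-High TBI against BIO300-High Day 1. These counts stand beside the shares of all genes given above for the same comparisons. The 2 of 8 higher in Vehicle TBI are near the 19.6% of all genes.

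How closely the members moved with each other was described by the SD over the 60 mice of the log2 ratio between a pair, which is 0 at a fixed proportion. Ppox and Slc25a38 were closest at 0.21, followed by Alas2 and Urod at 0.31, Uros and Slc25a38 at 0.32, and Uros and Ppox at 0.33. Alas2 and Fech were at 0.40 over all mice but at 0.14 within groups, so most of their divergence lay between groups. The most distant pairs were Fech and Tmem14c at 1.22 and Alas2 and Tmem14c at 1.15. The points share libraries and red cell content, and the values are descriptions.

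**Figure D4:**
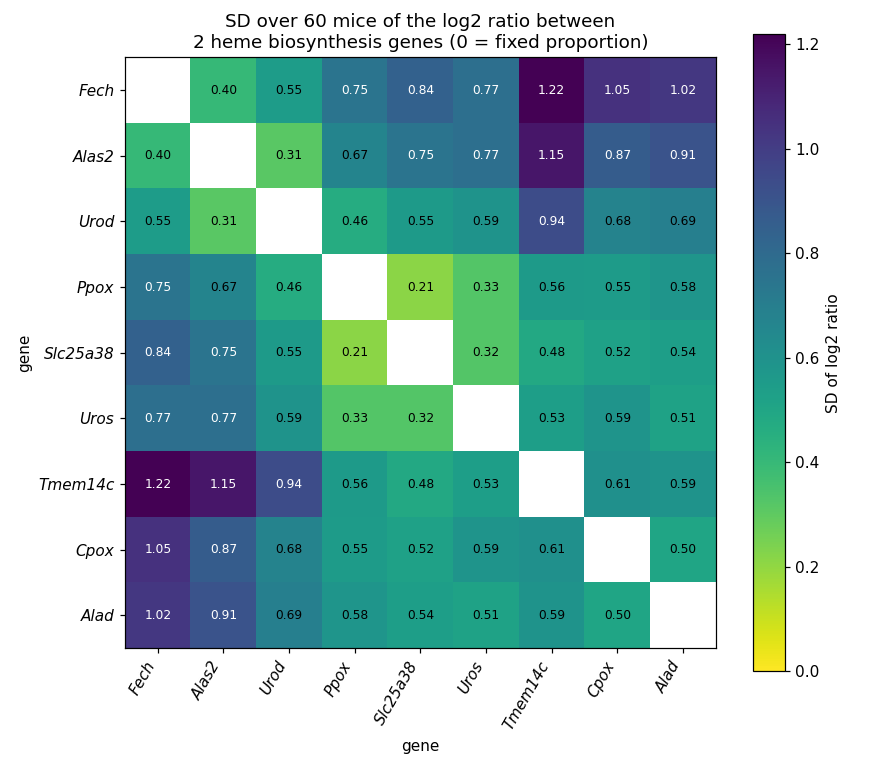
SD over 60 mice of the log2 ratio between each pair of the 9 genes (both axes list the genes, color gives the SD in log2 units). The lowest value, 0.21, belongs to Ppox and Slc25a38, and the highest, 1.22, to Fech and Tmem14c.

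Over 10147 genes, those whose mean count reached 100, the nearest genes to a member by the same measure were seldom other members. Nearest to Alas2 were Ube2l6 (SD 0.099), Slc38a5 (0.131), Sh3glb1 (0.139), Slc25a39 (0.147) and Ucp2 (0.160), against a median of 1.33 over all genes. Nearest to Fech were Ccndbp1 (0.090), Psme3 (0.097), Rnf10 (0.103) and Ube2r2 (0.131), against a median of 1.28. Urod was nearest to Stradb (0.125) and Pigq (0.139), Cpox to Golim4 (0.156) and Ppox to Slc16a6 (0.156). The remaining members had no gene closer than 0.189, which was Wwp1 to Tmem14c, with Cops2 at 0.207 to Uros, Ubp1 at 0.209 to Slc25a38 and Ndufb9 at 0.279 to Alad. A member stood among the 5 nearest genes of another once, Ppox for Slc25a38.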

How the data were processed

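Whole blood RNA of 60 mice was sequenced; the labels give polyA selection, whereas the study's methods give a stranded total RNA kit with depletion of ribosomal and globin RNA. According to the submitters' processing notes, reads were trimmed with Trimmomatic 0.36, aligned to GRCm38 with STAR 2.5.2b and counted with Subread 1.5.2, and the authors deposited the resulting gene counts unnormalised in 10 tables. The annotation release and strand setting are not given in the sources used here. A further 10 deposited tables hold the authors' own fold changes and p-values, which were not used; only their gene symbols were. Groups came from the sample titles.

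Counts were tested with edgeR 4.0.16 (quasi-likelihood test, R 4.3.3) on the mice of each comparison, after TMM scaling and a filter of 10 counts summed over the mice, with Benjamini-Hochberg adjustment over all genes tested. DEGs had to pass 2 limits, 0.05 for the adjusted p and 1 for the size of the log2 fold change. Interactions were fitted on the mice of 4 groups. Ratios within a library used log2(count + 0.5) and 2-sided exact permutation tests. Both procedures were tested on simulated data. Alternatives were scaling to total counts, median-of-ratios size factors, DESeq2 1.42.0, other low-count filters, a fit of all 10 groups, leaving out each mouse or the libraries with liver transcripts, and other references for the ratios.

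All 9 members were examined in every comparison and given by their range where none was called, with up to 4 called genes of the list of other heme genes and the 5 nearest genes by the SD of the log2 ratio, of which the closest are given. Some genes of the lists are not reported here by name. The members and lists were chosen with earlier results of these data known. Depth was at least 15099415 counts per mouse. P-values set differences between groups against the spread between mice, each sampled once.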

Additional observations from a re-analysis of the deposited data

Results flagged for a closer look

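A mouse stood apart from the other 5 of its group, by a gap above Dixon's critical value, in 8 of the 90 sets of a member and a group, and chance flags about 1 in 20 such sets. BIO300-Low Day 0 mouse 2 was the highest of its group for 4 members, at 26211 CPM for Alas2 (next 13516), 119.2 CPM for Urod (next 61.6), 14.7 CPM for Ppox (next 11.5) and 6003 CPM for Fech (next 3504). Vehicle Day 0 mouse 17, a library with liver transcripts, was highest for Alad at 43.9 CPM (next 23.6), and BIO300-High TBI mouse 57, another such library, was lowest for Ppox at 12.6 CPM (next 23.2). Vehicle TBI mouse 50 was highest for Uros at 11.5 CPM (next 7.86), and BIO300-High Day 1 mouse 47 was highest for Slc25a38 at 46.4 CPM (next 29.4).

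The effect of BIO 300 differed between irradiated and unirradiated mice, or between days, by a direct test (edgeR, adjusted p under 0.05 and absolute log2 difference over 1). With TBI minus without TBI, the BIO300-High effect differed by −2.0 for Alas2, −2.02 for Alad, −1.93 for Urod, −1.41 for Cpox, −1.30 for Ppox, −1.62 for Fech and −1.09 for Slc25a38. For Day 1 minus Day 0, the BIO300-High effect differed by 1.94 for Alas2, 1.78 for Alad, 1.65 for Urod, 1.05 for Cpox, 1.14 for Ppox, 1.49 for Fech and 1.21 for Slc25a38. The BIO300-Med effect differed by 1.96 for Alad, 1.11 for Uros, 2.08 for Urod, 1.17 for both Cpox and Ppox, 1.54 for Fech and 1.15 for Slc25a38. The BIO300-Low effect differed by 2.21 for Alas2, 1.43 for Alad, 1.04 for Uros, 2.04 for Urod and 2.23 for Fech. Without the libraries with liver transcripts Cpox was not called for the high or the middle dose, at 0.86 and 0.69.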

How the results depend on the processing

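Counts of called members depended most on the scaling. With total counts they were 0 for BIO300-Low Day 0, BIO300-Med Day 1 and BIO300-High Day 1 against vehicle, 1 for Vehicle TBI against Vehicle Day 1, 2 against Vehicle Day 0, 0 for the TBI interaction, and 0, 0 and 3 for the day interactions of the high, middle and low doses. Log2 values of called members then changed sign for Uros (−0.34), Ppox (−0.12) and Slc25a38 (−0.21) in BIO300-Med Day 1, for Uros (−0.34), Cpox (−0.12), Ppox (−0.084) and Slc25a38 (−0.15) in BIO300-High Day 1, and for Slc25a38 (0.078) in the TBI interaction. In the day interactions they did so for Cpox (−0.24), Ppox (−0.19) and Slc25a38 (−0.11) at the high dose, Uros (−0.34), Cpox (−0.14), Ppox (−0.28) and Slc25a38 (−0.28) at the middle dose, and Uros (−0.00074) at the low dose. Tmem14c, not called, went from 0.71 to −0.70 in BIO300-Med Day 1 and from 0.72 to −0.79 in BIO300-High Day 1. Vehicle TBI against Vehicle Day 0 had 2 called members with median-of-ratios size factors and with DESeq2, and 1 to 3 when single mice were left out. Vehicle TBI against Vehicle Day 1 had 4 without the libraries with liver transcripts. The low-count filters and the fit of all 10 groups left the counts of called members within 1.5 times their value. The fit of all 10 groups called 190 genes in place of 0 in BIO300-High TBI against Vehicle TBI, 7859 in place of 4873 in BIO300-High TBI against BIO300-High Day 1 and 1 in place of 0 in BIO300-High Day 0. For BIO300-Low Day 1, in place of 0, DESeq2 called 68 genes, the filter by expression 11 and no filter 3. DESeq2 also called 2 each in BIO300-Med and BIO300-High Day 0 and 37 in Vehicle Day 1 against Day 0, and the filter by expression called 7577 in place of 11563 in BIO300-Med Day 1. All genes called went from 1103 to 2870 in BIO300-Low Day 0, from 4873 to 9323 in BIO300-High TBI against BIO300-High Day 1, from 7945 to 12208 in the TBI interaction and from 2025 to 10577 in the low-dose day interaction when scaled to total counts. For the ratios, the globin reference gave 0 called members in BIO300-Low Day 0, 4 in BIO300-Med Day 1, 4 in BIO300-High Day 1, 2 in Vehicle TBI against either vehicle group and 2 in BIO300-High TBI against BIO300-High Day 1. The Alas2 reference gave 5 in BIO300-Med Day 1, 7 in BIO300-High Day 1, 1 in Vehicle TBI against Vehicle Day 1 and 2 against Vehicle Day 0. Shares over all genes were not computed for the globin and Alas2 references. Without the libraries with liver transcripts the number of called ratios was 0 in all 6 of these comparisons, with a smallest adjusted p of 0.0561 (exact permutation test). Fewer mice raised the smallest possible p to 0.00794 there, so the 0 cannot decide whether these libraries mattered. The cause of the other changes was not tested. No paired analysis was possible because every mouse has its own number and the groups share none.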
